A study of Mus musculus with 92 samples.

Results

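The genes described are 8 components of de novo sphingolipid synthesis: the serine palmitoyltransferase (SPT) subunits Sptlc1, Sptlc2 and Sptssa, the ORMDL regulators Ormdl1, Ormdl2 and Ormdl3, the reductase Kdsr and the desaturase Degs1. They were chosen by name, and all 8 were found among the 13441 genes of the table. The table holds quadriceps muscle RNA of 92 DOz mice, an outbred stock whose animals are genetically distinct from one another. All animals formed 1 group: they had eaten standard rodent chow for life and were about 18 to 20 weeks old, and the labels give no further treatment or genotype. The study's title links muscle ceramides with very long chains to insulin resistance, and with 1 group the questions open here are how much each gene differed between animals and what it varied with.

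Sphingolipids begin at the endoplasmic reticulum, where SPT joins serine to palmitoyl-CoA. Sptlc1 and Sptlc2 form the core of the enzyme, Sptssa is a small subunit that raises its activity, and the ORMDL proteins bind the complex and restrain it when ceramide is plentiful. Kdsr reduces the product of SPT to the sphingoid base sphinganine, ceramide synthases add a fatty acid, and Degs1 sets the double bond that turns dihydroceramide into ceramide.

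The genes lie on 5 chromosomes of the mouse build mm10, with positions from the GENCODE M21 annotation of the same assembly. Sptlc1 (ENSMUSG00000021468) spans chr13:53332748-53377397, Sptlc2 (ENSMUSG00000021036) chr12:87305058-87388355 and Sptssa (ENSMUSG00000044408) chr12:54645392-54656573, each on the minus strand. Ormdl1 (ENSMUSG00000026097) spans chr1:53297095-53310309 on the plus strand, Ormdl2 (ENSMUSG00000025353) chr10:128817902-128821645 and Ormdl3 (ENSMUSG00000038150) chr11:98581256-98587368 on the minus strand. Kdsr (ENSMUSG00000009905) spans chr1:106720459-106759727 and Degs1 (ENSMUSG00000038633) chr1:182275772-182282804, both on the minus strand. Exons of Ormdl2 overlap those of Dnajc14 on the opposite strand, and whether counting used strand is not given in the sources used here. Dnajc14 and Ormdl2 had an r of 0.0287 over the 92 animals (permutation p = 0.785, rho 0.0057, p = 0.956). Ormdl1 also overlaps the annotated gene Gm28778, not analysed here, and the deposited table gives Ormdl1 the biotype retained_intron.

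The promoter windows of the 3 ORMDL genes are shown because these paralogs, which encode close relatives with the same known role, differed most in level. Each is the RefSeq sequence of build GRCm38.p6 from 250 bases before to 50 bases after the annotated start, read 5′ to 3′ on the gene's strand. Capitals mark matches, on either strand, to GGGCGG (GC box), CCAAT (bound by NF-Y), CACGTG (E-box), TGACGT (the core of a cyclic AMP response element) or CCGGAAG (an ETS-type motif). In Ormdl1 and in Ormdl3, 1 run of capitals holds overlapping matches.
Ormdl1, chr1:53296845-53297144, plus strand: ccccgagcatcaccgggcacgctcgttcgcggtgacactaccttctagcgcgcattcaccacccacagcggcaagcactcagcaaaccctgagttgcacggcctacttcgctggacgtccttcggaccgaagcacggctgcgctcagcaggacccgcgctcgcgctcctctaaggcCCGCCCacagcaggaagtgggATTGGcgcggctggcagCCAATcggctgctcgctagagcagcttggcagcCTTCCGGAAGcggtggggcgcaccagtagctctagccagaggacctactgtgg
Ormdl2, chr10:128821580-128821879, minus strand: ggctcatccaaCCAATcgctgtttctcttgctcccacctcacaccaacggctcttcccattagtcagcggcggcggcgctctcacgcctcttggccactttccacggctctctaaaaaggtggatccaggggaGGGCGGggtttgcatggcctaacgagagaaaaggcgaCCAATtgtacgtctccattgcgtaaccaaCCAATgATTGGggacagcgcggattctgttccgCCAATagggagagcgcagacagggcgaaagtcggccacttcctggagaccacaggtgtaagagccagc
Ormdl3, chr11:98587196-98587495, minus strand: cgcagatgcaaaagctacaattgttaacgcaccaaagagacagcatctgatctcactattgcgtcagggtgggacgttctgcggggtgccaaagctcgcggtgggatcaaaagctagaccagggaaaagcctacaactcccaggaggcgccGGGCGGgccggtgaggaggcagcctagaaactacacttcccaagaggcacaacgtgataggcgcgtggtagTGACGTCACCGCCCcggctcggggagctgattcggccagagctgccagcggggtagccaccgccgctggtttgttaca

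The 3 windows differed in their motifs. Ormdl2 held 5 CCAAT matches and 1 GC box. Ormdl1 held 2 CCAAT matches, 1 GC box and 2 overlapping ETS-type matches across the annotated start. Ormdl3 held 2 GC boxes and no CCAAT, and was the member with TGACGT, matched on both strands in 1 palindromic run. That run begins 28 bases before the RefSeq start. The GENCODE span of Ormdl3 reaches farther upstream, to 98587368, and includes it. Over all 8 genes, 7 windows held GGGCGG, which was in 35.7% of the 32851 RefSeq promoter windows of the same length, and 5 held CCAAT, which was in 37.4%. CCGGAAG was in 2 of 8 (Sptlc1 and Ormdl1) against 8.86% of all windows, TGACGT in 1 against 7.51%, and CACGTG in 1 (Degs1) against 7.15%. These are letter matches and no binding was measured.

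The libraries were of muscle. The gene with the highest mean was Myh4, which encodes the myosin of fast IIb fibres, at 15.90 (log2), and no animal had less than 11.15 of Des, the muscle intermediate filament. Values are log2 levels on a per-million scale, read from the sums of the linear values, which lay between 898071 and 1140761 per sample. The number of reads behind a sample is unknown, so precision rests on the spread between animals. Rescaling every sample to the same linear sum shifted a sample by -0.19 to 0.16 (log2, SD 0.08), and its effect on the counts of called genes is given below. The labels name no batch. Numbers at the end of the sample titles form 5 runs of 33, 14, 21, 11 and 13 animals, called title-number blocks here, and 0 of the 8 genes differed between them (limma F test, adjusted p of 0.718 or more), where 0.0149% of 13441 genes were called.

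Sptlc1, the core subunit shared by all forms of SPT, was the steadiest of the 8 genes. Its lowest, median and highest levels over the 92 animals were 2.94, 3.59 and 3.94, and its mean was 3.57 ± 0.16 (SD, log2). The highest animal had 2.0 times the level of the lowest. A single animal stood apart at the low end, at 2.94 against 3.21 for the next. Genes of the same mean level had a typical SD of 0.28, and Sptlc1 lay at percentile 2 of the SDs of the 500 genes nearest to it in mean. Its SD was 0.14 without the 2 animals farthest from its median.

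Sptlc2, the catalytic core subunit that pairs with Sptlc1, was the 1 member whose spread lay above that of genes at its level. Its lowest, median and highest levels were 1.93, 2.96 and 3.87, with a mean of 2.92 ± 0.38 (SD, n = 92). The values ran without a break from low to high, and the highest animal had 3.83 times the lowest. The typical SD at its mean was 0.33, and Sptlc2 lay at percentile 62.8 of its 500 nearest genes, so its spread was wide for this pathway and ordinary for the transcriptome. The other 7 genes lay below the trend of SD on mean, and this count was also 7 of 8 after rescaling and without the 2 farthest animals of each gene.

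Sptssa, the small activating subunit, ranged from 3.15 through a median of 3.65 to 4.24, with a mean of 3.68 ± 0.20 (SD, n = 92). The animals formed a single continuous range of 2.13-fold.

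Of the ORMDL genes, Ormdl3 was the highest and Ormdl2 the lowest. Ormdl3 ranged from 4.16 through 4.62 to 5.52, with a mean of 4.62 ± 0.19 (SD, n = 92). Of the 92 animals, 2 stood above all others, at 5.52 and 5.27, and without them the SD was 0.16. Ormdl1 ranged from 2.49 through 3.08 to 3.66, with a mean of 3.06 ± 0.22 (SD, n = 92). Ormdl2 ranged from -1.62 through -0.26 to 0.90, with a mean of -0.28 ± 0.49 (SD, n = 92), which placed it at rank 12808 of 13441 genes by mean. Its highest animal had 5.72 times the lowest, but genes of so low a mean typically had an SD of 0.65, and Ormdl2 lay at percentile 8.6 of its 500 nearest genes.

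Kdsr, the reductase of the second step, ranged from 2.57 through 3.20 to 4.0, with a mean of 3.21 ± 0.26 (SD, n = 92). The top 2 animals lay at 4.0 and 3.97. The animal with the most Kdsr also had the second highest Ormdl3, and the animal with the least Kdsr had the second highest Sptlc2. Degs1, the desaturase of the last step, ranged from 3.55 through 4.23 to 4.56, with a mean of 4.19 ± 0.21 (SD, n = 92). Its range was longer below the median than above it, and 2 animals lay at 3.55 and 3.63.

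**Figure D1:**
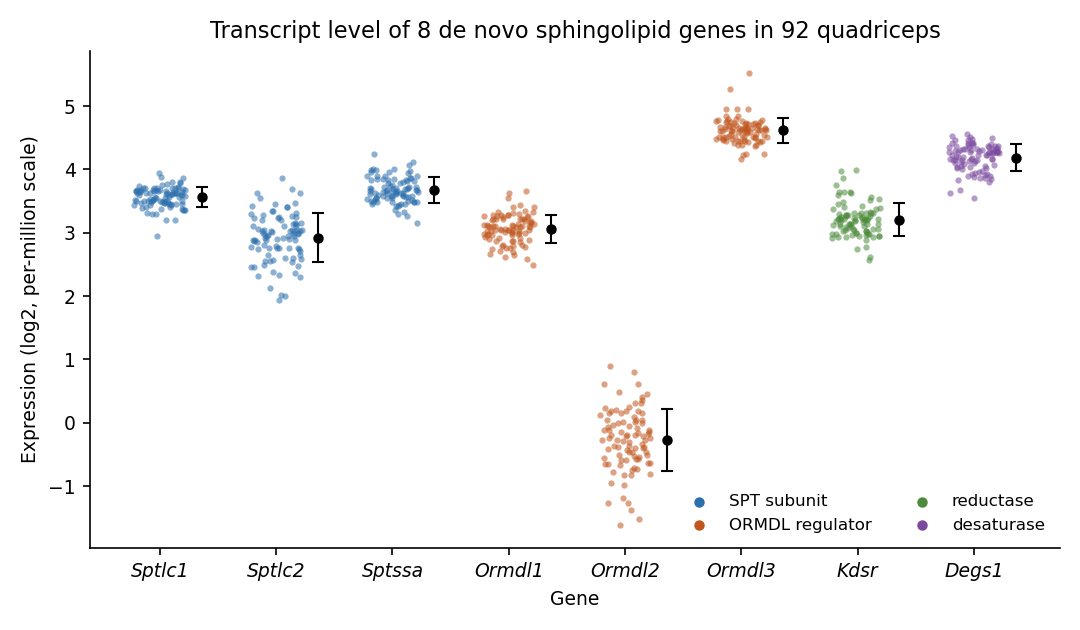
Expression of the 8 genes (log2, per-million scale, vertical axis), with 1 point per animal (n = 92 per gene) and the mean ± SD drawn over the points. Ormdl3 and Degs1 are the highest on the deposited scale, with no division by gene length made here, and 2 animals stand above the rest for Ormdl3. Ormdl2 lies between -1.62 and 0.90, below the lowest animal of every other gene.

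Levels of different genes were compared per kilobase of merged exon within each animal. Whether the deposited values had already been divided by gene length is not given in the sources used here. If they had, the levels with no division by length are the ones to read. The mean log2 level per kilobase fell in the order Ormdl3 (3.49), Sptssa (3.07), Degs1 (2.81), Sptlc1 (1.74), Ormdl1 (0.83), Kdsr (0.18), Sptlc2 (-0.10) and Ormdl2 (-1.02). The 7 mean differences between neighbours are above 0 because the genes were sorted by these means. Each differed from 0 at this length (two-sided sign-flip permutation test, p = 1e-05 for each, the smallest the resamples can give, adjusted p = 1e-05 over the 7). Each difference also holds a fixed length term, so the test says nothing about the order at another length. Degs1 exceeded Sptlc1 in 92 of 92 animals, by 1.08 ± 0.23 (SD, log2), and Sptlc1 exceeded Ormdl1 in 92 of 92, by 0.91 ± 0.26. Sptssa lay above Degs1 by 0.26 ± 0.31 in 72 of 92 animals, and Kdsr above Sptlc2 by 0.28 ± 0.42 in 71 of 92. In both of these steps the difference was smaller than its SD between animals.

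The order depends on the length given to each gene. With the longest protein-coding transcript it was the same, but the difference between Sptlc1 and Ormdl1 was 0.05 (p = 0.0546). With the median annotated transcript, which is short for Sptlc1 and Sptlc2 (670 and 763 bases), Sptlc1 came first, Sptlc2 stood above Kdsr and Sptssa above Ormdl3. With no division by length, Degs1 stood above Sptssa and Kdsr above Ormdl1. Ormdl2 was the lowest of the 8 under each of the 4 choices, no division by length included.

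The ORMDL transcript pool was mostly Ormdl3. Per kilobase of merged exon, Ormdl3 made up 82.8% ± 2.81 (SD, n = 92) of the summed ORMDL level, from 75.9% in the lowest animal to 91.02% in the highest. Ormdl1 made up 13.3% ± 2.43 (6.02% to 20.9%) and Ormdl2 3.85% ± 1.28 (1.57% to 8.31%). Ormdl3 exceeded Ormdl1, and Ormdl1 exceeded Ormdl2, in 92 of 92 animals, whichever of the 4 lengths was used. The mean share of Ormdl3 was between 69.3% and 82.8% over those lengths.

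**Figure D2:**
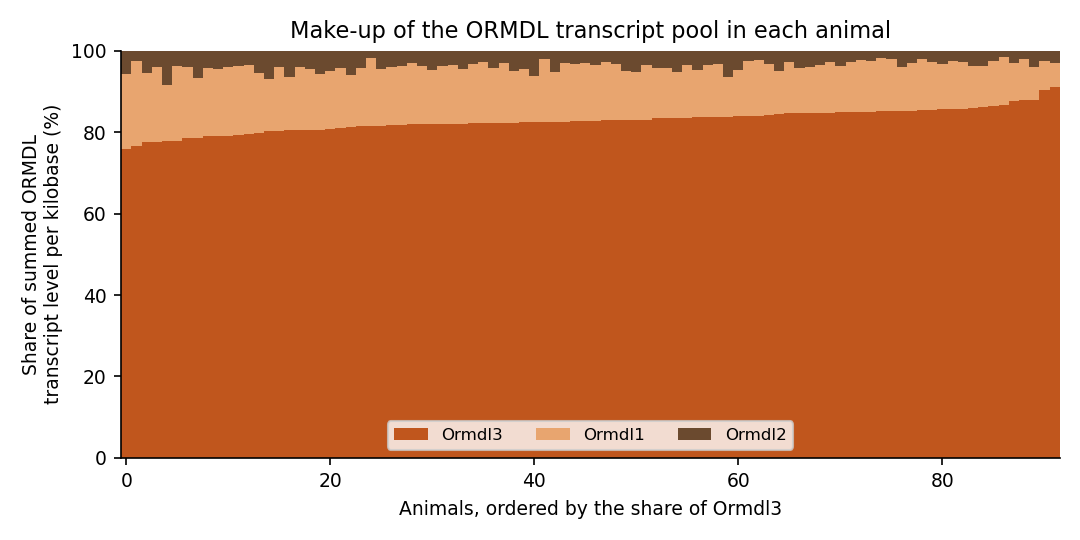
Share of Ormdl1, Ormdl2 and Ormdl3 in the summed ORMDL transcript level per kilobase of merged exon (%, vertical axis), with 1 bar per animal, ordered by the share of Ormdl3. In each bar the shares make up the whole, and the Ormdl3 part runs from 75.9% to 91.02% with no separate class of animals.

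The ratio of regulator to enzyme transcripts varied more when taken against Sptlc2 than against Sptlc1. The summed ORMDL level was 4.12 ± 0.68 times that of Sptlc1 (SD, n = 92, 2.89 to 6.70), a coefficient of variation of 16.5%. Against Sptlc2 the ratio was 15.1 ± 4.51 (6.84 to 29.6), a coefficient of variation of 29.8%. The 2 core subunits, which work as a dimer, were themselves not in a fixed transcript ratio: Sptlc1 stood at 3.71 ± 1.11 times Sptlc2, from 1.69 to 7.98. Sptssa stood at 2.56 ± 0.42 times Sptlc1. The ratios scale with the lengths chosen and are not ratios of proteins. With the median annotated transcript the ORMDL sum was 0.894 times Sptlc1 and 1.64 times Sptlc2, and Sptssa was 0.93 times Sptlc1. With no division by length these ratios were 2.90, 4.66 and 1.09. A length multiplies the Sptlc1 to Sptlc2 ratio of every animal by the same factor, so its coefficient of variation, 29.98%, cannot change with length.

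The 8 genes did not vary together in these animals beyond the threshold. Of their 28 pairs, 0 passed limma with an adjusted p under 0.05, with either gene as predictor, and 3 (10.7%) had an unadjusted p under 0.05 in both directions. For these predictors 8.41% to 15.2% of all genes had an unadjusted p under 0.05, so the 3 pairs are at the background share. Adjustment was over all 13440 other genes. The median r was 0.0476, with 15 pairs positive and 13 negative, and the median size of r was 0.111 against 0.0968 over all pairs of genes in the table. No pair had the same sign in all 5 title-number blocks. No pair within Sptlc1, Sptlc2 and Sptssa, whose proteins share 1 complex, was among the 3 pairs with an unadjusted p under 0.05.

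Their values are given as a description, and each held Kdsr or Degs1. Sptssa and Kdsr had the largest coefficient, an r of -0.322 (permutation p = 0.0017) and a rho of -0.28 (p = 0.0073). Leaving out the 2 animals most extreme in Sptssa gave an r of -0.32, and the limma adjusted p was 0.159 or 0.0836, depending on the predictor. Ormdl3 and Kdsr had an r of 0.261 (p = 0.0118) but a rho of 0.115 (p = 0.275), and the r was 0.139 without the 2 animals of highest Ormdl3. Sptlc1 and Degs1 had an r of 0.225 (p = 0.0313) and a rho of 0.301 (p = 0.0039), and the limma adjusted p was 0.541 or 0.32. After rescaling, 3 pairs were called with both predictors: Sptlc1 with Degs1, Ormdl3 with Kdsr, and Ormdl3 with Degs1, at adjusted p of 0.0065, 0.0111 and 0.0353 with the first gene as predictor. On that scale 15.4% of all genes were called with Sptlc1, 9.2% with Ormdl3, 4.95% with Kdsr and 13.6% with Degs1, against 7.17% with Sptlc2, 4.43% with Sptssa, 0.409% with Ormdl1 and 0.528% with Ormdl2. As a share, 3 of 28 pairs is below those of Sptlc1 and Degs1 and above those of the other members, Ormdl3 and Kdsr among them. A pair had to pass with both predictors, a stricter rule than the 1 behind the shares of all genes.

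**Figure D3:**
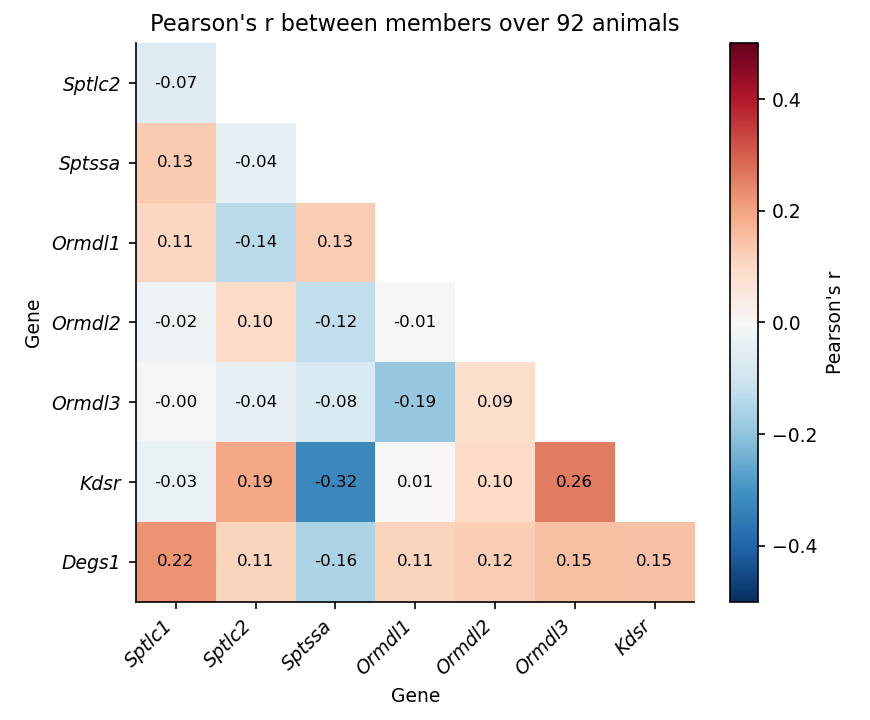
Pearson's r between each pair of the 8 genes over the 92 animals, as a coloured and numbered grid. Coefficients run from -0.32 (Sptssa with Kdsr) to 0.26 (Ormdl3 with Kdsr), and 0 of the 28 pairs passed the adjusted threshold on the deposited scale.

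Cers1 and Cers2, the ceramide synthases for C18 and very long acyl chains, use the sphingoid base that the pathway delivers. With the level of Cers1 as predictor, 0 of the 8 genes were called, where 4.87% of all genes were. With Cers2 as predictor, again 0 of 8 were called, where 7.96% of all genes were. The nearest to the threshold was Degs1, with a slope of -0.06 ± 0.02 (SE, log2 per SD of Cers1, limma adjusted p = 0.0978). After rescaling, Sptlc2, Sptssa, Ormdl3 and Degs1 were called as rising with Cers2, with slopes of 0.13, 0.07, 0.08 and 0.08 and adjusted p between 0.0024 and 0.0167. Of all genes 25% were called with Cers2 on that scale, 24.6% as rising.

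Each member was then used as the predictor of every other gene, and a slope is the log2 change of a gene per SD of the member. Of the other 7 members, 0 were called with any predictor, and the share of all genes called is given for each below. Of 51 other sphingolipid and precursor genes listed, 43 were measured. Over the 8 predictors this gave 344 relations, of which 4 were called and 48 (13.95%) reached an unadjusted p below 0.05. Over all genes that share was 11.2%, from 8.41% to 15.2% between predictors. The 4 were Fasn and Elovl6 with Ormdl3, Samd8 with Kdsr and Phgdh with Degs1. For the other 5 members, 0 of 43 were called, and the median slope of the 43 lay between -0.01 and 0.02 over the 8 predictors. None of the 5 ceramide synthases measured was called with any member.

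With Sptlc1 as predictor, 0 of 13440 genes (0%) were called, and 1130 had an unadjusted p under 0.05. After rescaling, 2074 genes were called. With Sptlc2 as predictor, 21 genes (0.156%) rose with it and 0 fell. On rank values of predictor and genes, an alternative chosen after seeing the data, 0 were called, and after rescaling 963 were, all 21 among them. The closest were Hps3, a subunit of a complex that builds lysosome-related organelles, with a slope of 0.15 ± 0.03 (SE, adjusted p = 0.0016), Pf4, a chemokine of platelets and some macrophages, with a slope of 0.27 ± 0.05 (adjusted p = 0.0179), and Dab2, an endocytic adaptor, with a slope of 0.19 ± 0.04 (adjusted p = 0.0294). Pf4 itself ran from 0.08 to 4.01 over the animals.

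Sptlc2 varied with macrophage transcripts. Its r with the mean standardised level of 8 macrophage markers was 0.391 (permutation p = 9e-05, adjusted p = 0.0029 over 64 relations of 8 genes with 8 marker lists), while rho was 0.233 (p = 0.0259, adjusted p = 0.166). Within title-number blocks r lay between -0.142 and 0.763, and leaving out the 2 animals most extreme in the marker score gave an r of 0.3. All 8 macrophage slopes were positive and 1 was called, that of the mannose receptor Mrc1 (slope 0.25 ± 0.06, adjusted p = 0.0474). The summed macrophage level ranged from 5.49 to 9.20 between animals, and the animal with the highest sum had the second highest Sptlc2, 3.70. Sptlc2 also had an r of 0.308 with fibroblast markers (permutation p = 0.0029, adjusted p = 0.0371, rho 0.211, p = 0.0438, rho adjusted p = 0.215), of which 0 of 8 were called, and this r was 0.193 without the 2 farthest animals. Given the marker scores as covariates, 0 genes were called with Sptlc2, and with the first 3 principal components 0 as well. Without its 2 farthest animals 1 was, Hps3 (adjusted p = 0.0324). The part of macrophage content in the level of Sptlc2 was not tested.

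With Sptssa as predictor, 12 genes (0.0893%) were called, 3 rising and 9 falling. Those that rose were Srp54c, a copy of the gene for the signal recognition particle subunit that binds signal sequences (slope 0.27 ± 0.05, SE, adjusted p = 0.0131), the uncharacterised Gm47467 (0.17 ± 0.04, adjusted p = 0.0352) and the growth factor receptor Fgfr4 (0.21 ± 0.05, adjusted p = 0.0477). Among those that fell were the unconventional myosin Myo18a (slope -0.10 ± 0.02, adjusted p = 0.0352), the kinase Nek9 (-0.09 ± 0.02, adjusted p = 0.0472) and the zinc finger gene Zfp335 (-0.08 ± 0.02, adjusted p = 0.0477). With the marker scores as covariates 0 were called, with slopes of 0.26 for Srp54c, 0.17 for Gm47467, 0.17 for Fgfr4, -0.09 for Myo18a, -0.08 for Nek9 and -0.08 for Zfp335. Fgfr4 had an adjusted p of 0.059 without the 2 animals of extreme Sptssa. After rescaling 595 genes were called, 6 of them among the 12, and the adjusted p of Myo18a was 0.0584 and of Zfp335 0.12.

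Ormdl1 had 105 associated genes (0.781%), of which 102 rose and 3 fell. Vbp1, a subunit of the prefoldin chaperone, was the closest: its levels ran from 4.40 through 4.96 to 5.46, and its r with Ormdl1 was 0.603 (permutation p = 1e-05, rho 0.567, p = 1e-05, 0.571 without the 2 farthest animals). Its slope was 0.12 ± 0.02 (SE, adjusted p = 4.07e-06). Aasdhppt, which adds the phosphopantetheine arm to carrier proteins, rose by 0.09 ± 0.02 per SD (adjusted p = 0.00039), and Mmgt1, a subunit of the endoplasmic reticulum membrane complex, by 0.08 ± 0.01 (adjusted p = 0.00039). The 3 that fell were Cnnm2, linked to magnesium transport (slope -0.14 ± 0.04, adjusted p = 0.0327), Uba7, the activating enzyme for the ubiquitin-like Isg15 (-0.21 ± 0.05, adjusted p = 0.0307), and Clcn7, a lysosomal chloride transporter (-0.07 ± 0.02, adjusted p = 0.0421). Without the 2 animals of extreme Ormdl1, the adjusted p of Vbp1 was 8.24e-05, and those of the 3 that fell were between 0.052 and 0.178. After rescaling, 55 genes were called, 54 of them among the 105, and the 3 that fell had an adjusted p between 0.143 and 0.389. On rank values 37 were called, 35 of them among the 105. Adding the marker scores as covariates left 25 genes called, 24 of them among the 105. No marker list was associated with Ormdl1 in the 64 relations.

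Ormdl2 had 1 associated gene (0.00744%), Clec3b, which encodes the plasminogen-binding protein tetranectin. Clec3b ran from 3.08 through 4.13 to 5.10 and rose by 0.18 ± 0.04 per SD of Ormdl2 (SE, adjusted p = 0.0467). Given the title-number block as a covariate, its adjusted p was 0.11, and in the model with the marker scores its slope was 0.08 (adjusted p = 0.539). Ormdl2 had an r of 0.297 with fibroblast markers (permutation p = 0.0038, adjusted p = 0.0409, rho 0.289, p = 0.0053, rho adjusted p = 0.0986), and 0 of those 8 markers were called singly. With the title-number block means removed, r was 0.274 (permutation p = 0.0084, adjusted p = 0.0672). On rank values 0 genes were called with Ormdl2.

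Ormdl3 had 272 associated genes (2.02%), of which 230 rose and 42 fell, and genes of fat cells were among the closest. This was the largest of the 8 counts with all genes and animals on the deposited scale without covariates, while Kdsr had more without the 2 farthest animals (205 against 96) and among genes with a mean of at least 1 (223 against 218). After rescaling the count of Ormdl3 was 1236, 233 of them among the 272, below the counts of Sptlc1 (2074) and Degs1 (1834). On rank values it was 124, 114 of them among the 272. Fabp4, the fatty acid binding protein of adipocytes, ran from 6.67 through 7.46 to 9.54 and had an r of 0.686 with Ormdl3 (permutation p = 1e-05, rho 0.596, p = 1e-05). Lipe, the hormone-sensitive lipase, ran from 3.17 to 7.02 with a slope of 0.39 ± 0.04 (SE, adjusted p = 1.12e-10). Cox6a1, the cytochrome oxidase subunit that most tissues use in place of the muscle form, had the largest positive r among called genes with a mean of at least 1, 0.69 (p = 1e-05, rho 0.515, p = 1e-05), and a slope of 0.29 ± 0.03 (adjusted p = 6.99e-11). Of the 9 genes listed for palmitoyl-CoA supply or use, 2 rose. Fatty acid synthase Fasn rose by 0.73 ± 0.12 per SD (adjusted p = 6.37e-06) and the elongase Elovl6 by 0.68 ± 0.12 (adjusted p = 1.42e-05). Fasn differed widely between animals, from 3.81 to 10.65.

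Nearly the whole adipocyte list rose with Ormdl3. Of its 8 markers 7 were called as rising, the exception being leptin (Lep, slope 0.49 ± 0.19, adjusted p = 0.236), and the adiponectin gene Adipoq rose by 0.59 ± 0.08 per SD (adjusted p = 4.26e-08). The r of Ormdl3 with the adipocyte score was 0.644 (permutation p = 1e-05, adjusted p = 0.00064) and rho was 0.561 (p = 1e-05, adjusted p = 0.00064). It was positive in all 5 title-number blocks, between 0.548 and 0.831, and 0.546 without the 2 animals of extreme Ormdl3. Those 2 animals, with Ormdl3 at 5.52 and 5.27, held the highest and second highest summed adipocyte level, 10.58 and 9.89, where the median animal had 8.08 and the lowest 6.96. Degs1 was the other member associated with this score (r 0.313, permutation p = 0.0023, adjusted p = 0.0371, rho 0.261, p = 0.0127, rho adjusted p = 0.13), with 1 of 8 markers called.

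When the marker scores were covariates, 1 gene remained called with Ormdl3, and it was Cox6a1 (slope 0.24, adjusted p = 0.0015). In that model the slope was 0.07 for Fasn (adjusted p = 0.923) and 0.20 for Elovl6 (adjusted p = 0.699). Without the 2 animals of extreme Ormdl3, 96 genes were called, 86 of them among the 272. Fasn then had a slope of 0.45 (adjusted p = 0.0494) and Elovl6 of 0.35 (adjusted p = 0.174). In RNA from whole muscle, fewer cells of a type and less RNA per cell cannot be told apart. The part of fat cell content in the level of Ormdl3 was not tested.

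**Figure D4:**
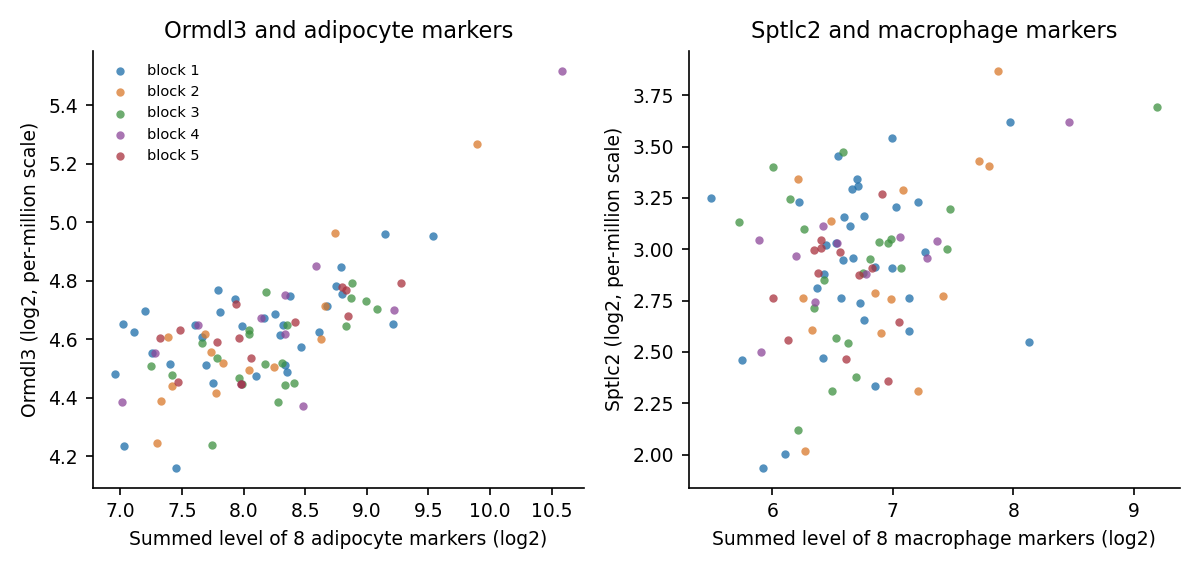
Left, Ormdl3 against the summed level of 8 adipocyte markers. Right, Sptlc2 against the summed level of 8 macrophage markers. All axes are log2, each point is 1 of 92 animals and colours mark the 5 title-number blocks. The 2 animals highest in Ormdl3 are also the 2 highest in adipocyte markers, while in the macrophage plot the animal with the highest marker sum, 9.20, has the second highest Sptlc2.

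Genes that fell as Ormdl3 rose included contractile genes. Myh1, the myosin of fast IIx fibres, fell by 0.18 per SD (SE 0.04, adjusted p = 0.0014), the scaffold gene Akap9 fell by 0.09 (SE 0.02, adjusted p = 0.0023) and Efr3b, which anchors a lipid kinase at the plasma membrane, fell by 0.17 (SE 0.04, adjusted p = 0.0023). Without the 2 animals of extreme Ormdl3, the adjusted p was 0.0991 for Myh1, 0.435 for Akap9 and 0.0634 for Efr3b, and after rescaling those of Myh1 and Akap9 were 0.0719 and 0.0931. Within title-number blocks r of Myh1 with Ormdl3 ran from -0.661 to 0.435. Ormdl3 had an r of -0.342 with slow fibre markers (permutation p = 0.00077, adjusted p = 0.0164, rho -0.257, p = 0.0137, rho adjusted p = 0.13). Of the 8 slow markers 3 were called as falling, the myosin light chain Myl3, the troponin Tnnt1 and the calcium store protein Casq2, and the other 5 slopes were negative. Of the 8 fast fibre markers 0 were called.

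Kdsr had 228 associated genes (1.7%), of which 102 fell and the rest rose. Irs2, an adaptor of the insulin receptor, ran from 2.95 through 4.79 to 6.28 and rose by 0.32 ± 0.06 per SD of Kdsr (SE, adjusted p = 0.0022, r 0.494). Within title-number blocks its r ran from -0.473 to 0.725, positive in 4 of 5. Adi1, an enzyme of methionine salvage, rose by 0.16 ± 0.03 (adjusted p = 0.0022), and the desmosomal linker Ppl by 0.17 ± 0.03 (adjusted p = 0.0023), with r from -0.197 to 0.622 within blocks for Ppl. Mdga1, a cell adhesion gene, fell by 0.35 (SE 0.06, adjusted p = 0.0022), the DNA replication factor Rpa1 fell by 0.09 (SE 0.02, adjusted p = 0.0024) and the Z-disc gene Synpo2l fell by 0.11 (SE 0.02, adjusted p = 0.0025). In the model with the marker scores the slope of Rpa1 was -0.06 (adjusted p = 0.054). Of the 43 pathway genes, Samd8, which makes the ceramide phosphoethanolamine of the endoplasmic reticulum, rose by 0.08 ± 0.02 (adjusted p = 0.014, r 0.401), and its slope was 0.05 (adjusted p = 0.064) with the first 3 principal components as covariates. No marker list passed the adjusted threshold with Kdsr. Its r with the macrophage score was 0.233 (permutation p = 0.0254, adjusted p = 0.148). All 8 macrophage slopes were positive and 1 was called, that of Cd163 (slope 0.23 ± 0.05, adjusted p = 0.0058). Adding the title-number block to the model left 116 genes called, all of them among the 228. Of the 228, 101 were called again with the marker scores as covariates and 115 with the first 3 principal components, when 250 genes were called in all. After rescaling 665 were called, 148 of them among the 228, and on rank values 108 of the 228 were called again.

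Degs1 had 59 associated genes (0.439%), 46 rising and 13 falling. On rank values 0 were called, and after rescaling 1834 were, 53 of them among the 59. Of the 6 genes of serine supply, Phgdh, the first enzyme of serine synthesis, was called: it ran from -0.87 through 0.81 to 2.69 and rose by 0.30 ± 0.07 per SD of Degs1 (SE, adjusted p = 0.0136, r 0.43). With the marker scores as covariates its slope was 0.14 (adjusted p = 0.28). The zinc finger gene Zfp800 rose by 0.15 ± 0.03, Eeig2 by 0.15 ± 0.03 and Prelp, a proteoglycan of the matrix, by 0.23 ± 0.05 (adjusted p = 0.0093 for each). The RNA helicase gene Dhx30 fell by 0.15 (SE 0.03, adjusted p = 0.0093), Fam193b fell by 0.10 (SE 0.02, adjusted p = 0.0095) and Nexn, an actin-binding Z-disc gene, fell by 0.08 (SE 0.02, adjusted p = 0.0211). With the title-number block as covariate Nexn had an adjusted p of 0.0519, and after rescaling Fam193b had one of 0.0691. Given the first 3 principal components as covariates, Prelp kept its call (adjusted p = 0.0188), and the adjusted p of Phgdh, Zfp800, Eeig2, Dhx30, Fam193b and Nexn was between 0.0634 and 0.193. In the model with the marker scores, the adjusted p was 0.0671 for Eeig2 and Dhx30, 0.142 for Prelp and 0.223 for Nexn. Leaving out the 2 animals of extreme Degs1 gave 0.0559 for Eeig2. Adding the marker scores left 28 genes called, 11 of them among the 59. The macrophage marker Cd163 (slope 0.21 ± 0.05, adjusted p = 0.0211) and the fibroblast marker Dpt (0.16 ± 0.03, adjusted p = 0.0136) were called with Degs1. The scores of these 2 lists did not pass (r 0.266 and 0.254, permutation test, adjusted p = 0.0842 and 0.106).

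Genes within 5 Mb of each member on its chromosome were counted, after the values had been seen. For Ormdl3, 5 genes or 2.79% of those in the window were called, near the 2.02% over all genes. The counts for 3 other members were small: 2 of 36 for Ormdl1 (0.781% over all genes), 1 of 13 for Kdsr (1.7%) and 1 of 38 for Sptssa (0.0893%). The count was 0 for Sptlc1, Sptlc2, Ormdl2 and Degs1. Osgepl1, a mitochondrial tRNA-modifying enzyme, begins 3315 bases beyond Ormdl1 at chr1:53313624-53326343, on the same strand. It rose by 0.09 ± 0.02 per SD of Ormdl1 (SE, adjusted p = 0.0027, r 0.469, permutation p = 1e-05, rho 0.453, p = 2e-05), and r within blocks lay between 0.198 and 0.58. Mob4, a kinase adaptor at a distance of 1.82 Mb, rose by 0.09 ± 0.02 (adjusted p = 0.0026).

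Bcl2, the inhibitor of cell death, lies 6185 bases from Kdsr on the same strand, at chr1:106538178-106714274. It rose by 0.36 ± 0.08 per SD of Kdsr (SE, adjusted p = 0.0089, r 0.413, permutation p = 6e-05, rho 0.409, p = 6e-05), with r between 0.258 and 0.559 within blocks. Srp54c lies 0.574 Mb from Sptssa, at chr12:55230168-55263836, and had an r of 0.476 with it (permutation p = 1e-05, rho 0.457, p = 1e-05), between 0.445 and 0.658 within blocks. In 4 animals Srp54c lay between 3.02 and 3.78, and in the other 88 it was at least 4.66. Srp54c belongs to a family of near-identical copies, so how reads were divided among them is uncertain. In the model with the marker scores the slope was 0.07 for Osgepl1 (adjusted p = 0.0633), 0.28 for Bcl2 (adjusted p = 0.0599) and 0.26 for Srp54c (adjusted p = 0.0722). The 5 neighbours of Ormdl3 (Aoc3, Acly, Coasy, Acsf2 and Acbd4) lay 1.89 to 4.51 Mb away, and in the same model their adjusted p was between 0.141 and 0.897. The slope of Aoc3 was then 0.02 against 0.41 without the scores, and that of Acbd4 0.18 against 0.12. Without the 2 animals of extreme Ormdl3, Aoc3 was called (adjusted p = 0.00042) and the other 4 had an adjusted p between 0.121 and 0.348.

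**Figure D5:**
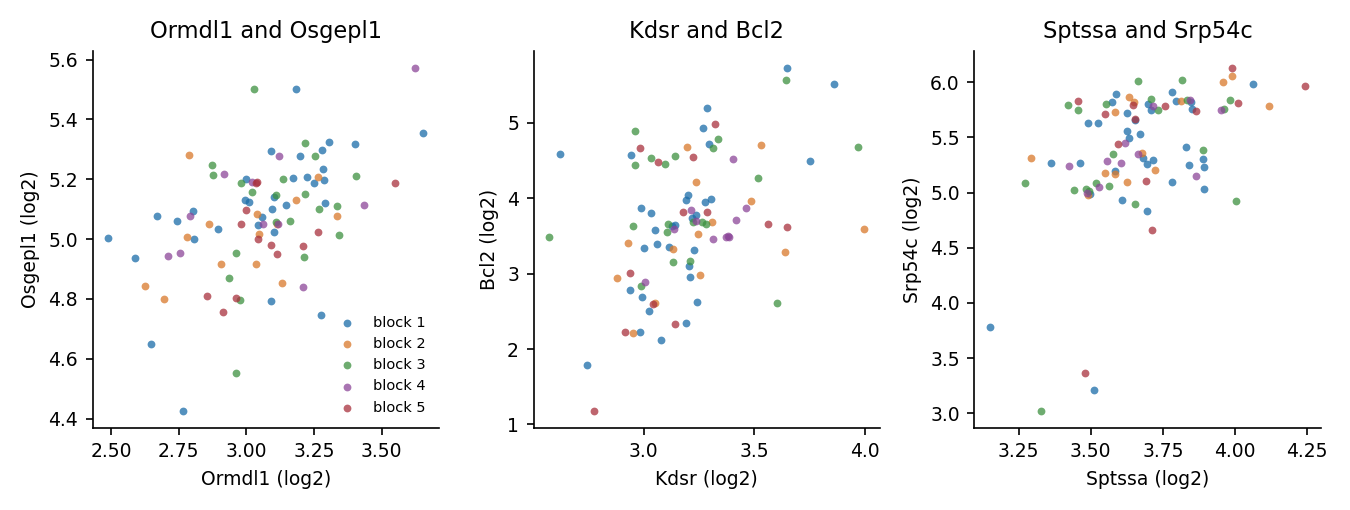
Level of a chromosomal neighbour (vertical axis, log2) against the level of the member (horizontal axis, log2) for Ormdl1 with Osgepl1, Kdsr with Bcl2 and Sptssa with Srp54c. Each point is 1 of 92 animals and colours mark the 5 title-number blocks. Coefficients are 0.469, 0.413 and 0.476, and 4 animals stand low in Srp54c, at 3.78 or less.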

How the data were processed

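RNA of 92 quadriceps samples was sequenced from KAPA mRNA HyperPrep libraries made with 500 ng of RNA, per the labels' protocols. The authors deposited 1 table of log2 values. Per the submitters' processing notes, bcl2fastq, MultiQC, kallisto 0.50.1 and edgeR were used with build mm10; their settings, the scaling and any removal of weak genes are not given in the sources used here. Of 13456 lines, 15 repeats were removed, and 13441 genes were left, of which 13255 matched GENCODE M21. Nothing in the labels beyond separate sample titles says that samples are separate animals, and they were treated as such.

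The planned tests were kept. Slopes on the standardised level of each gene were fitted with limma 3.58.1 in R 4.3.3 (empirical Bayes with trend, Benjamini-Hochberg adjustment over all other genes, threshold 0.05). Levels per length, r and rho were tested with 100000 resamples (scipy 1.17.1), two-sided, smallest p 1e-05. The trend of SD on mean is a lowess curve. Scripts were tested on simulated data. Named genes are up to 3 with the most positive and 3 with the most negative r among called genes with a mean of at least 1, and called pathway genes. Alternatives covered covariates, 2 extreme animals left out, scaling, pseudocount, low filter, ranks and gene length. Members and lists were chosen with earlier results of these data known. The chromosomal neighbours were added later.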

Additional observations from a re-analysis of the deposited data

How the results depend on the processing

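The scaling of the deposited values is unknown, and so is whether they were already divided by gene length. After rescaling each sample to the same sum, 3 pairs of members and 4 relations with Cers2 were called in place of 0, where 25% of all genes were called with Cers2 and 0.409% to 15.4% with the members, and the genes called were 2074 for Sptlc1, 963 for Sptlc2, 595 for Sptssa, 55 for Ormdl1, 71 for Ormdl2, 1236 for Ormdl3, 665 for Kdsr and 1834 for Degs1. The cause was not tested. Under the other alternatives run, no pair was called with both genes as predictor and no relation with Cers1 or Cers2 was called, but with 3 principal components Kdsr passed with Ormdl3 as predictor (slope 0.09, adjusted p = 0.0400).

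With the marker scores as covariates the counts were 0 for Sptlc2, Sptssa and Ormdl2, 25 for Ormdl1, 1 for Ormdl3 and 28 for Degs1. With 3 principal components they were 0 for Sptlc2, 119 for Sptssa, 2 for Ormdl2 and 13 for Degs1. With the title-number block they were 7 for Sptlc2, 32 for Sptssa, 0 for Ormdl2 and 116 for Kdsr. Without the 2 animals farthest from the predictor's median they were 1 for Sptlc2, 31 for Sptssa, 2 for Ormdl2, 96 for Ormdl3 and 38 for Degs1. For Sptlc2, log2(value + 1) gave 47 and genes with a mean of at least 1 gave 5. On rank values, added after seeing the data, the calls shared with the deposited scale were 0 for Sptlc2, Ormdl2 and Degs1, 6 of 12 for Sptssa, 35 of 105 for Ormdl1, 114 of 272 for Ormdl3 and 108 of 228 for Kdsr. Of 41 slopes for named genes and pairs, 26 fell below the threshold with the marker scores, 13 with the principal components, 11 without the 2 animals, 8 after rescaling and 2 with the title-number block, while 1 with the principal components and 2 after rescaling came to pass it. In none of the alternatives run did one of these slopes change sign. By rank, 1 of the 6 marker relations was called, that of Ormdl3 with adipocyte markers.

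With the median transcript length, Ormdl3 minus Sptssa was -0.53, Degs1 minus Sptlc1 -0.45, Ormdl1 minus Kdsr -0.0923 and Kdsr minus Sptlc2 -1.48. Without division by length, Sptssa minus Degs1 was -0.51 and Ormdl1 minus Kdsr -0.14. With the longest coding transcript, an alternative chosen after seeing the data, Sptlc1 minus Ormdl1 was 0.0528. These reversals follow from the lengths alone. The shares of Ormdl1, Ormdl2 and Ormdl3 were 21.8%, 6.26% and 71.95% with the median transcript. Ormdl1 and Ormdl3 were 25.01% and 72.4% with no division, and 27.3% and 69.3% with the coding transcript. The ratios of the ORMDL sum to Sptlc1, the ORMDL sum to Sptlc2, Sptlc1 to Sptlc2 and Sptssa to Sptlc1 were 0.894, 1.64, 1.85 and 0.93 with the median transcript, and 2.90, 4.66, 1.63 and 1.09 with no division. Sptssa to Sptlc1 was 2.12 with the coding transcript.

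No paired analysis was possible because the animals form 1 group, and their replicate numbers only name them. Depth is unknown, so sampling noise in a low gene such as Ormdl2 cannot be separated from differences between animals.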
